A study of Arabidopsis thaliana with 3 samples.

Results

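Glucosinolates are the sulfur-rich defence compounds of Arabidopsis thaliana and its relatives, and 34 loci of their synthesis, transport and breakdown were listed by locus identifier. Values were found for 33 of them among 27374 genes, and the expression of AOP2 was not analysed here. By role, the 33 were 6 MYB regulators, 5 genes of chain elongation, 12 of core synthesis, 3 of side chain or ring modification, 2 transporters and 5 of hydrolysis. By branch, 15 belonged to the aliphatic branch, 8 to the indole branch and 10 to a shared group of core steps, transport and hydrolysis. The shared group includes PEN2, although PEN2 acts on indole glucosinolates.

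The data were 3 RNA-seq libraries of whole wild-type seedlings of the cultivar Col-0. The plants were 9 days old and came from MS plates kept at 23 °C in long days, with 16 h light and 8 h dark. Ribosomal RNA was removed from the total RNA, and the libraries were strand-specific. The 3 libraries form 1 group, so genes were compared with each other within libraries, and whether the libraries came from separate cultures is not given in the labels, so that SDs and p-values measure the spread between these libraries, which may be technical.

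In background, aliphatic glucosinolates derive mainly from methionine, whose side chain is first lengthened, and indole glucosinolates derive from tryptophan. A CYP79 enzyme turns the amino acid into an aldoxime, a CYP83 enzyme oxidises it, and a shared set of enzymes adds sulfur and glucose before a sulfotransferase completes the molecule. The finished compounds are stored apart from myrosinases, the thioglucosidases that break them down when tissue is damaged, and modifier proteins decide whether isothiocyanates, nitriles or other products form. MYB28, MYB29 and MYB76 regulate the aliphatic branch, and MYB34, MYB51 and MYB122 the indole branch.

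Values are FPKM (fragments per kilobase of transcript, scaled to the mapped fragments of the library) summed over the transcripts of a gene, and so are levels per length. The level of a gene in whole seedlings cannot tell fewer cells of a type from less RNA per cell. Markers of green tissue were high, with CAB1 at 14284 ± 737 FPKM (SD, n = 3). All 5 guard cell markers and all 4 phloem markers exceeded 1 FPKM, where 65.1% of nuclear genes had at least that. The guard cell markers ran from SLAC1 at 3.60 to GC1 at 167 FPKM, and those of phloem from APL at 6.92 to SWEET11 at 116. Of the root markers, the beta-glucosidase PYK10 had 1009 ± 52.9, PHT1;1 had 8.28 ± 1.49 and IRT1 had 2.03, 0.948 and 2.90 FPKM. The floral markers AP1 and AP3 and the seed marker CRA1 had at most 0.227 FPKM on average, and LEC1 of embryos and VGD1 of pollen were listed at 0. The read depth is not stated. Among genes of very low value with 1 transcript, the commonest ratio of values was 0.966 between libraries 1 and 2, 1.03 between 1 and 3 and 1.07 between 2 and 3. If whole fragments were counted, these are the ratios of what 1 fragment is worth.

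Glucosinolate genes were abundant. Of the 33, 31 had a mean of at least 1 FPKM, where 65.1% of nuclear genes did, and their median was 22.3 FPKM against 3.92 for nuclear protein-coding genes. Their median percentile rank among these genes was 84.8. Together they made up 0.281%, 0.288% and 0.276% of the summed FPKM of nuclear genes in libraries 1, 2 and 3. The order of the means ran from TGG1 at 596 FPKM to AOP3, listed at 0. Of the 32 neighbours in that order, 13 had overlapping library values, for example TGG2 and BCAT4, or GTR1 and GTR2. Overlap of the ranges does not by itself mean that the order changes within libraries. TGG2 had 78.92, 78.86 and 70.81 FPKM and lay above BCAT4 in each library, at 76.76, 78.77 and 69.31. GTR1 lay above GTR2 in 2 of 3 libraries. By role, the median level was 76.2 FPKM for hydrolysis, 57.8 for elongation, 34.1 for core synthesis, 21.7 for transport, 12.1 for the regulators and 1.89 for modification.

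The 3 libraries were alike in these genes. Of the 31 members of at least 1 FPKM, 15 (48.4%) were highest in library 3, 10 in library 1 and 6 in library 2, where 39.2%, 35.0% and 25.9% of 17626 protein-coding genes were. The median deviation of the members from their own mean was 0.021, -0.015 and 0.019 on the log2(FPKM + 1) scale in libraries 1, 2 and 3, against 0.0086, -0.021 and 0.015 for all those genes. Library 2 was thus the low one for members and for all genes alike, and the counts are a description with no test.

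**Figure D1:**
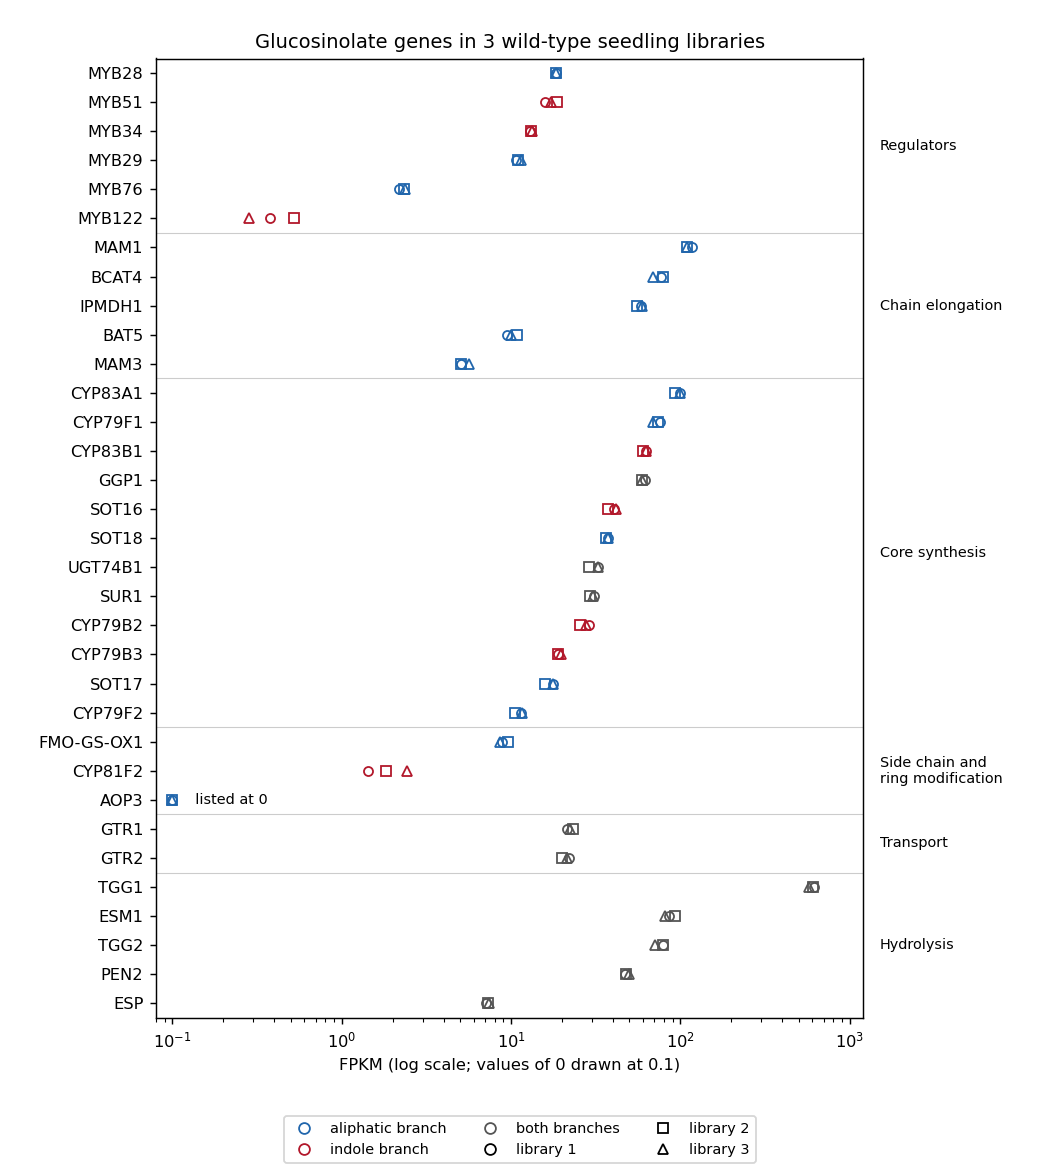
FPKM of the 33 measured glucosinolate genes in each of 3 libraries (symbols) on a log axis, grouped by role and coloured by branch. PEN2 has the colour of both branches, although it acts on indole glucosinolates. TGG1 lies highest, near 596 FPKM, MYB122 lies below 1 FPKM, and AOP3 is listed at 0.

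The promoters of 5 core genes are shown here because these genes carry the comparison of the branches: CYP83A1 and CYP83B1 are the alternative enzymes of the same step, SUR1 serves both branches, and CYP79F1 and CYP79F2 are tandem copies of unequal level. Each is the 250 bases before the annotated gene start in RefSeq TAIR10.1, written 5′ to 3′ on the strand of the gene. Capitals mark the G-box CACGTG, a site type bound by MYC factors, and AC elements, a site type of R2R3-MYB factors. The AC elements searched were ACCAAAC and ACCAAAT, with ACCAACC and ACCAACT, and likewise ACCTAAC and ACCTAAT, with ACCTACC and ACCTACT, on both strands, and none of the matches shown here overlaps a G-box.
CYP83A1 (chr4:7992430-7992679, minus strand): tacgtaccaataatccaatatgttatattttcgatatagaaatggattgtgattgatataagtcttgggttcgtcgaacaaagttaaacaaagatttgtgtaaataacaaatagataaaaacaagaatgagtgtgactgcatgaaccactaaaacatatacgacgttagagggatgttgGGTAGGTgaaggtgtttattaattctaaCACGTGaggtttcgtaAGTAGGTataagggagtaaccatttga
CYP83B1 (chr4:15275405-15275654, minus strand): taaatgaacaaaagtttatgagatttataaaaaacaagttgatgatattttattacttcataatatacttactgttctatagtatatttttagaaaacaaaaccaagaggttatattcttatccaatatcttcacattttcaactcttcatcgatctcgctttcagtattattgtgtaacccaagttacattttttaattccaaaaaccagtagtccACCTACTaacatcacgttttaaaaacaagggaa
SUR1 (chr2:8880441-8880690, minus strand): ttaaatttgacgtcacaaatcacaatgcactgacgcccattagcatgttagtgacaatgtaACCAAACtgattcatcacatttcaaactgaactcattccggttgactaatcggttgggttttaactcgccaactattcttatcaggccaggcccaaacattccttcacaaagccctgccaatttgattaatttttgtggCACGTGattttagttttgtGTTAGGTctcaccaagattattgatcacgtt
CYP79F1 (chr1:5608432-5608681, plus strand): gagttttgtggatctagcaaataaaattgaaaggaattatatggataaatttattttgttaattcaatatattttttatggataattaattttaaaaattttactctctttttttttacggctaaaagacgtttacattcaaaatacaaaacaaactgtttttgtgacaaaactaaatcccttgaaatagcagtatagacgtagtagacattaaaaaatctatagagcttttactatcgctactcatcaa
CYP79F2 (chr1:5604794-5605043, plus strand): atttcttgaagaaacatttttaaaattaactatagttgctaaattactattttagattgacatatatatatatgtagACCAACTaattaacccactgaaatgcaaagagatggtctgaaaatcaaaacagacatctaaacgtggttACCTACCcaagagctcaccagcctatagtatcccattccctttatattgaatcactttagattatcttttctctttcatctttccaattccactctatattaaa

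CYP83A1 held a G-box that begins 43 bases before the gene start, between AC elements at 71 and 27, and SUR1 held a G-box at 50 with AC elements at 189 and 31. CYP83B1 had an AC element at 33 and CYP79F2 had AC elements at 173 and 104, while the window of CYP79F1 held none of these letters. Over all 34 loci, 18 windows (52.9%) held an AC element, against 29.4% of the windows of 27443 nuclear protein-coding genes. The share was 9 of 16 in the aliphatic branch, 5 of 8 in the indole branch and 4 of 10 in the rest. The G-box was in 2 of 34 windows (5.88%), against 6.49% of all. Of the 6 regulators, MYB122 was the 1 whose window held an AC element. A match describes these letters and is no measured binding site.

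The leading regulators of both branches had similar levels, and each branch also had a scarce one. MYB28 (AT5G61420) had 18.5, 18.4 and 18.5 FPKM in libraries 1, 2 and 3, and its aliphatic partner MYB29 (AT5G07690) had 10.7, 11.05 and 11.4. MYB76 (AT5G07700) had 2.18, 2.33 and 2.35. These 3 sets of values did not overlap. On the indole side MYB51 (AT1G18570) had 15.9, 18.6 and 17.1 FPKM and MYB34 (AT5G60890) had 12.9, 13.1 and 13.3. MYB122 (AT1G74080) had 0.378, 0.524 and 0.285. MYB51 overlapped with MYB28 and lay above MYB34 in each library.

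Differences between members were tested with limma on log2(FPKM + 1), as the ratio of each gene to a reference member within libraries, with Benjamini-Hochberg adjustment over 17867 genes tested against that reference. Of 17 pairs listed, 15 could be tested and 13 passed an adjusted p of 0.05. Nearly any gene differs from any other at this precision, and 93.6% to 99.9% of the 17867 genes tested passed against these references. The sizes are therefore what the pairs describe. With so many passing, the adjustment hardly moves p-values near 0.05. For SOT16 against SOT18 the limma p was 0.0402 and the limma adjusted p 0.0412. No adjustment was made over the 15 pairs. The difference of MYB29 from MYB28 was -0.69 on the log2(FPKM + 1) scale (SE 0.046, limma adjusted p = 2.1e-06, lower in 3 of 3 libraries). That of MYB76 was -2.57 (SE 0.070, limma adjusted p = 3.0e-08). Of the genes tested, 95.6% passed against MYB28. The difference of MYB51 from MYB28 was -0.10, with a 95% interval from -0.22 to 0.025 (limma adjusted p = 0.105), and MYB51 was the lower in 2 of 3 libraries. Without replicate 2 this difference was -0.16 and passed (limma adjusted p = 0.0239, with a range of 5.5e-05 to 0.497 over all alternatives). MYB34 differed from MYB28 by -0.47 (SE 0.042, limma adjusted p = 1.5e-05). MYB51 exceeded MYB34 by 0.37 (SE 0.053, limma adjusted p = 0.000181), where 93.6% of genes passed. MYB122 lay below the filter of 1 FPKM and so outside the main test. With no filter on low values it differed from MYB34 by -3.34 (SE 0.055, limma adjusted p = 2.3e-09, lower in 3 of 3 libraries).

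**Figure D2:**
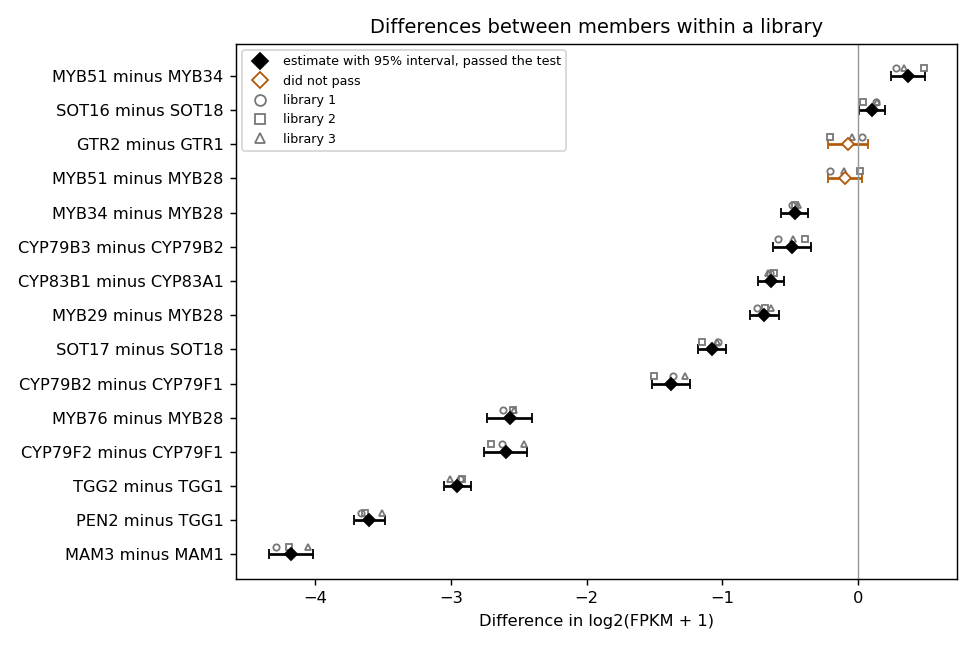
Differences in log2(FPKM + 1) between 15 pairs of members, with the limma estimate, its 95% interval and the value in each library. The difference of MAM3 from MAM1 (-4.18) lies farthest from 0, and the intervals of GTR2 against GTR1 and MYB51 against MYB28 include 0.

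The summed level of MYB28 was the steadiest among the 31 members of at least 1 FPKM, while the listed split between its transcript forms differed between libraries. The SD of its summed log2(FPKM + 1) was 0.0034, smaller than in all but 0.2% of the 500 protein-coding genes nearest in level. Form 2 (AT5G61420.2) made up 72.3%, 56.7% and 59.6% of the gene in libraries 1, 2 and 3, and form 1 made up 27.7%, 43.3% and 40.4%. Library 1 stood apart from libraries 2 and 3 in this split. No error can be given for these shares, so whether the split differs beyond it was not tested. With each gene counted by its highest form alone, MYB51 exceeded MYB28 by 0.53 (limma adjusted p = 5.5e-05). In that count the difference from MYB28 was 0.17 for MYB34 (limma adjusted p = 0.227) and -0.059 for MYB29 (limma adjusted p = 0.681), and neither passed.

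**Figure D3:**
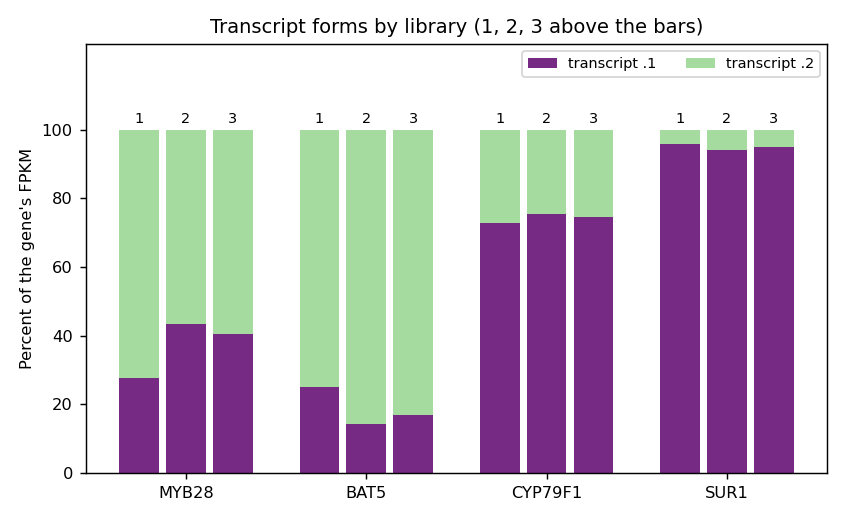
Share of FPKM by transcript form in libraries 1, 2 and 3, as stacked bars in percent of the gene. The listed split of MYB28 and BAT5 differs between libraries, with form 1 of MYB28 between 27.7% and 43.3%, whereas form 1 of CYP79F1 stays between 72.7% and 75.5%.

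Genes of chain elongation, which belongs to the aliphatic branch, spanned a wide range. MAM1 (AT5G23010), a methylthioalkylmalate synthase that adds the carbon units, had 117, 109 and 110 FPKM in libraries 1 to 3. BCAT4 (AT3G19710), the aminotransferase that opens the cycle, had 76.8, 78.8 and 69.3. IPMDH1 (AT5G14200, IMD1 in the gene table), the dehydrogenase of the cycle, had 58.7, 55.2 and 59.5 FPKM. However, 94.9% of its transcript matched its paralog IPMDH3 (AT1G31180, IMD3 in the table) at 90.4% identity, so the split of reads between them is uncertain. BAT5 (AT4G12030), the plastid transporter of the keto acids, had 9.49, 10.8 and 9.94 FPKM. MAM3 (AT5G23020, IMS2 in the table), the tandem copy of MAM1, had 5.04, 5.04 and 5.67.

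No library value of MAM3 came near MAM1. The difference of MAM3 from MAM1 was -4.18 on the log2(FPKM + 1) scale (SE 0.071, 95% interval -4.34 to -4.01, limma adjusted p = 2.0e-11, 3 of 3 libraries), where 99.4% of genes passed. Their transcripts were 84.7% identical over 76.3% of MAM1. The genes lie on the same strand of chromosome 5 in TAIR10.1, MAM1 at 7703041 to 7706973 and MAM3 at 7718118 to 7721866, with no other protein-coding gene between them. In BAT5 the split between forms also differed in library 1, as form 2 made up 75.1%, 85.8% and 83.2% of it.

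Of the CYP79 enzymes, the aliphatic CYP79F1 (AT1G16410) was the most abundant. CYP79F1 had 75.6, 73.8 and 68.7 FPKM, and its tandem copy CYP79F2 (AT1G16400), an enzyme for longer-chain methionine derivatives, had 11.4, 10.5 and 11.6. CYP79B2 (AT4G39950) and CYP79B3 (AT2G22330), which convert tryptophan, had 28.8, 25.4 and 27.8 FPKM and 18.8, 19.05 and 19.7. None of these 4 genes overlapped with another. The difference of CYP79F2 from CYP79F1 was -2.60 (SE 0.075, limma adjusted p = 1.3e-16) and that of CYP79B2 from CYP79F1 was -1.38 (SE 0.067, limma adjusted p = 4.1e-13), where 98.5% of genes passed. CYP79B3 differed from CYP79B2 by -0.49 (SE 0.069, limma adjusted p = 7.8e-09), where 96.2% passed.

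CYP79F1 and CYP79F2 are adjacent on chromosome 1 (CYP79F2 from 5605044 to 5607498, CYP79F1 from 5608682 to 5612064, both plus strand, TAIR10.1). Their transcripts were 88.3% identical over 88.5% of CYP79F2, which leaves the split of reads less certain than for CYP79B2 and CYP79B3, at 81.3% identity. Form 1 of CYP79F1 made up 72.7%, 75.5% and 74.6% of the gene. With its highest form alone, the difference of CYP79F2 from it was -2.17, and that of CYP79B2 was -0.96.

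Of the CYP83 enzymes, CYP83A1 (AT4G13770), which oxidises aliphatic aldoximes, had 98.8, 92.8 and 99.9 FPKM. CYP83B1 (AT4G31500), which acts on the indole aldoxime, had 62.7, 60.1 and 62.6. The groups of values did not overlap, and CYP83B1 differed by -0.64 (SE 0.043, 95% interval -0.74 to -0.55, limma adjusted p = 1.9e-07, 3 of 3 libraries), where 99.1% of genes passed.

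Among the members of core synthesis that both branches use, GGP1 (AT4G30530) was the most abundant. GGP1, a peptidase that trims the glutathione conjugate, had 61.7, 59.3 and 59.1 FPKM. SUR1 (AT2G20610), the C-S lyase, had 30.9, 29.4 and 30.4, of which form 1 made up 94.1% to 95.8%. The glucosyltransferase UGT74B1 (AT1G24100) had 32.4, 28.7 and 32.7 FPKM and overlapped with SUR1. All 12 members of core synthesis exceeded 1 FPKM, and the lowest was CYP79F2 at 11.2 ± 0.602.

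The last core step is made by sulfotransferases. SOT16 (AT1G74100), which prefers indole substrates, had 40.7, 37.4 and 41.4 FPKM, and SOT18 (AT1G74090), which prefers aliphatic ones, had 37.2, 36.4 and 37.5. Their ranges overlapped. SOT16 was higher in 3 of 3 libraries, by 0.10 (SE 0.041, 95% interval 0.0059 to 0.20, limma adjusted p = 0.0412), where 97.7% of genes passed. This call was lost without replicate 1 (0.088, limma adjusted p = 0.174), without replicate 3 (0.082, limma adjusted p = 0.163) and in a fit with the variance of each gene (limma adjusted p = 0.102), with a range of 0.0235 to 0.174 over all alternatives. SOT17 (AT1G18590), also aliphatic, had 17.6, 15.8 and 17.7 FPKM and differed from SOT18 by -1.08 (SE 0.045, limma adjusted p = 3.9e-08).

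Step by step, the aliphatic branch had higher sums than the indole branch in 3 enzyme steps, while the sums of the regulators overlapped. The MYB genes of the aliphatic branch summed to 31.4, 31.8 and 32.3 FPKM and those of the indole branch to 29.2, 32.2 and 30.7, a ratio of 1.04 ± 0.045 (SD, n = 3) that was above 1 in 2 of 3 libraries. For CYP79 the sums were 87.0, 84.3 and 80.4 against 47.7, 44.4 and 47.5, a ratio of 1.81 ± 0.11. For CYP83 the ratio was 1.57 ± 0.026. For the sulfotransferases the sums were 54.8, 52.2 and 55.3 against 40.7, 37.4 and 41.4, a ratio of 1.36 ± 0.033, with 2 genes set against 1. In these 3 enzyme steps the aliphatic sum was higher in every library and the groups did not overlap. The sums were not tested, and they were made only with all transcripts of a gene added. In the aliphatic CYP79 sum, form 2 of CYP79F1 accounted for 18.7 ± 1.69 FPKM, and the ratios were not computed with the highest form alone. Of single genes, 99.1% passed against CYP83A1, so the sizes of the ratios are what these steps describe.

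**Figure D4:**
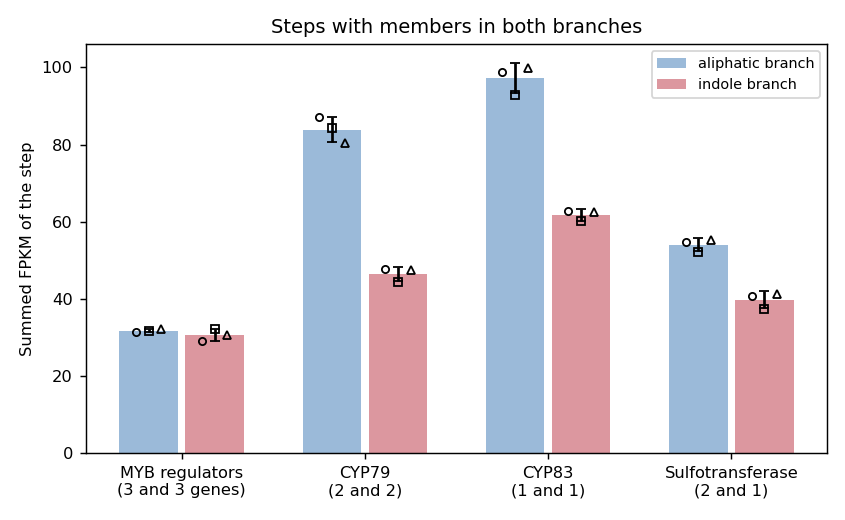
Summed FPKM of the aliphatic and indole genes of each step that has members in both branches. Bars are means of 3 libraries, error bars are SDs and symbols are libraries. The bars of the regulators are level, with a ratio of 1.04. With all transcripts of a gene added, the CYP79 sums differ most, with a ratio of 1.81.

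As whole lists the branches were not clearly apart. The 15 aliphatic members had a median of 17.1 FPKM and the 8 indole members a median of 18.2, with median percentile ranks of 80.4 and 81.5. The mean log2(FPKM + 1) was 4.25 in the aliphatic and 3.81 in the indole branch, a difference of 0.45 ± 0.035 (SD, n = 3), given as a description with no test. It rests on the placing of members. PEN2, at 5.62 on this scale, was in the shared group, and the difference was not computed with PEN2 in the indole branch. With the median over members in place of the mean, the difference was -0.087 ± 0.14, and with enzymes alone it was 0.12 ± 0.068. Without AOP3 (AT4G03050) and MYB122, the 2 members below 1 FPKM, it was 0.27 ± 0.048. By the mean the aliphatic branch was the higher in 3 of 3 libraries. By the median the difference was 0.025, -0.24 and -0.047 in libraries 1, 2 and 3, so its sign was not settled.

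Of the listed roles, modification of side chain and ring had the lowest median, over 3 measured members of which AOP3 was listed at 0. FMO GS-OX1 (AT1G65860), an S-oxygenase of aliphatic side chains, had 8.89, 9.64 and 8.62 FPKM. AOP3, a dioxygenase of aliphatic side chains, was listed at 0 in all 3 libraries, in both of its transcript forms. Its neighbour AOP2 (AT4G03060, chromosome 4, 1351688 to 1354096, minus strand, TAIR10.1) is annotated in this accession as a transcribed pseudogene. CYP81F2 (AT5G57220), which hydroxylates the indole ring and serves defence against microbes, had 1.43, 1.82 and 2.42 FPKM.

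Among members of at least 1 FPKM, CYP81F2 had the widest spread, an SD of 0.25 in log2(FPKM + 1), larger than in 86.0% of the 500 genes nearest in level. The camalexin genes PAD3 and CYP71A13, which draw on the same indole aldoxime, had 1.25, 0.950 and 2.69 FPKM and 0.276, 0.108 and 0.335 FPKM. Library 3 was the highest for all 3 genes, as it was for 39.2% of protein-coding genes of at least 1 FPKM. CYP71A13 lay below 1 FPKM, and whether the 3 genes vary together was not tested. Among members of at least 1 FPKM, 20 of 31 had an SD below the median of the genes nearest in level, and none of the 33 had libraries more than 1 apart on the log2 scale, where 0.585% of nuclear genes did.

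**Figure D5:**
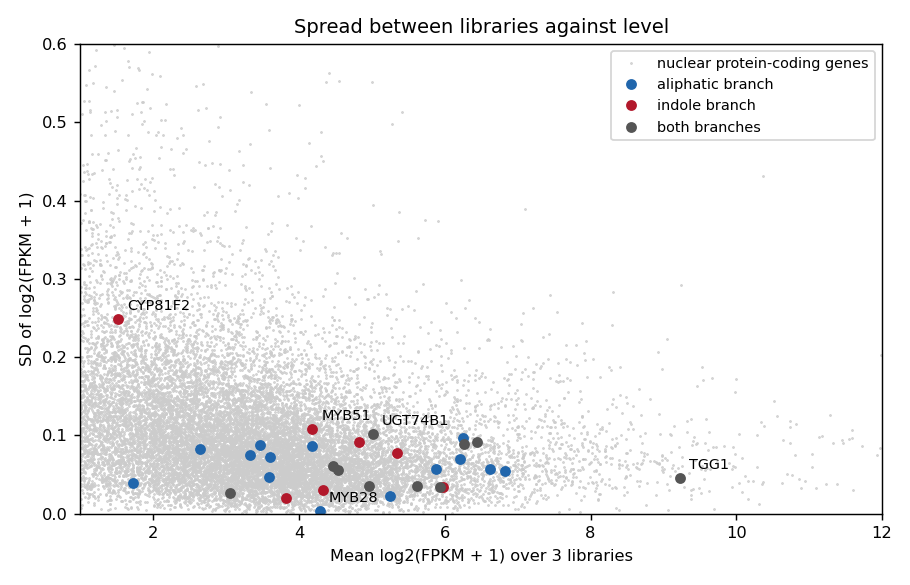
SD of log2(FPKM + 1) over 3 libraries against its mean, for nuclear protein-coding genes (grey) and for members with at least 1 FPKM (coloured by branch). CYP81F2 lies highest among members at 0.25, and MYB28 lies lowest at 0.0034.

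The transporters GTR1 (AT3G47960) and GTR2 (AT5G62680), which import glucosinolates into cells for long-distance movement, had similar levels. GTR1 had 21.5, 23.3 and 22.1 FPKM, and GTR2 had 21.9, 20.1 and 21.4. The ranges overlapped. The difference of GTR2 from GTR1 was -0.076, with a 95% interval from -0.22 to 0.069 (limma adjusted p = 0.285), so a difference within these bounds is not excluded. Of the genes tested, 95.3% passed against GTR1.

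Hydrolysis was led by 1 myrosinase. TGG1 (AT5G26000) had 611, 603 and 575 FPKM, above 99.6% of protein-coding genes of the nucleus. TGG2 (AT5G25980), the other myrosinase of the shoot, had 78.9, 78.9 and 70.8. PEN2 (AT2G44490), an atypical myrosinase that acts on indole glucosinolates in defence, had 47.3, 47.7 and 49.6. The 3 groups did not overlap. TGG2 differed from TGG1 by -2.95 (SE 0.043, limma adjusted p = 7.2e-12) and PEN2 by -3.60 (SE 0.049, limma adjusted p = 4.6e-12), where 99.9% of genes passed. TGG1 and TGG2 were 81.0% identical over 96.0% of TGG1, and 2.7% of the TGG1 transcript matched another gene at 90% or more. Guard cells and phloem idioblasts are the known sites of TGG1. The summed markers of guard cells lay between 187 and 191 FPKM and those of phloem between 229 and 246. Most of the guard cell sum was GC1, at 167 ± 2.20 FPKM, and the next marker was FAMA at 9.06 ± 0.572. Whether these markers bear on the level of TGG1 was not tested.

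The modifiers of hydrolysis were unequal. ESM1 (AT3G14210), which favours isothiocyanates, had 85.3, 92.3 and 81.2 FPKM. ESP (AT1G54040), the epithiospecifier protein that favours nitriles and related products, had 7.12, 7.30 and 7.42. The values of ESP lay below those of ESM1 in every library. A stretch of 19.1% of the ESP transcript matched another gene at 90% identity or more, so part of its reads is uncertain.

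Several members lie beside each other in the genome. In TAIR10.1, 8 pairs of members, with 15 members among them, lay within 20 kb, and 6 of the pairs had no protein-coding gene between. The same count was not made for other genes. Each MYB gene of the indole branch on chromosome 1 lay near sulfotransferase genes. MYB51 (6389399 to 6391386) was 7144 bases from SOT17, with 1 protein-coding gene between them. MYB122 (27855578 to 27857598) was 5215 bases from SOT18, which in turn was 151 bases from SOT16. Whether genes that lie this close have more similar levels than other genes was not tested. The ranges of MYB51 (17.2 ± 1.37 FPKM) and SOT17 (17.05 ± 1.07) overlapped. Those of SOT18 and SOT16 overlapped too, although SOT16 was the higher in 3 of 3 libraries. MYB122 had 0.396 ± 0.120 FPKM beside 37.03 ± 0.586 for SOT18. In the tandem pairs of 1 enzyme type, MAM1 and MAM3 or CYP79F1 and CYP79F2, 1 copy also exceeded the other, as did MYB29 over MYB76 (11.06 ± 0.390 and 2.29 ± 0.0901 FPKM).

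A wider list of 45 genes, of the pathway and of tryptophan supply and camalexin synthesis beside it, was found complete in the files. Of these, 37 had at least 1 FPKM, where 65.1% of nuclear genes did. All 8 further core genes did, from the glutathione transferase GSTF9 at 539 ± 11.5 FPKM to GSTF11 at 11.2 ± 0.550. All 5 further elongation genes lay between 24.7 (IPMI-SSU3, AT3G58990) and 96.6 FPKM (IPMI-LSU1, AT4G13430). Among 6 regulators, the MYC factor MYC2 was highest at 37.8 ± 1.33, and IQD1 was lowest at 2.38 ± 0.269.

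Modifying genes again ranged widely. Of 7 side chain genes, GS-OH (AT2G25450), a dioxygenase of alkenyl side chains, had 275 ± 3.68 FPKM, whereas BZO1, of benzoyloxy glucosinolates, was listed at 0, 0.0332 and 0. Of 6 genes of indole modification, CYP81F4, an oxygenase of the indole ring, led with 78.9, 57.4 and 76.5 FPKM and was lowest in library 2, and CYP81F1 (AT4G37430) had 0.265 ± 0.0272. TSB1 and ASA1, of tryptophan synthesis, had 52.7 ± 2.14 and 13.9 ± 0.508 FPKM. PEN3, an ABC transporter of the plasma membrane, had 155 ± 4.51 and GTR3 (AT1G18880) 13.2 ± 1.17. Among 7 further hydrolysis genes, the nitrile specifier NSP1 led with 257, 240 and 260 FPKM, and NSP2 was listed at 0.118, 0 and 0.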

How the data were processed

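Each library has a deposited list of 36172 transcripts with their values. The headers name no unit. The deposited values were read as FPKM, from their range and from the tools in the submitters' processing notes, which are TopHat2 2.0.9 and Cufflinks 2.1.1 with the build TAIR10. The annotation, its filters and any scaling were not given in the sources used here. FPKM were summed per TAIR locus. Gene names, positions and promoters came from RefSeq TAIR10.1, where all 34 loci matched. The files hold no coordinates, so none were converted between builds.

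Log values are log2(FPKM + 1), and folds on this scale understate the differences of low genes. Pairs were tested with limma 3.58.1 (R 4.3.3; intercept model of the within-library log2 ratio, empirical Bayes with trend, two-sided) over genes averaging 1 FPKM or more. In simulated data with the levels of 17868 genes and CYP83A1 as reference, genes 0.25 apart were called in 94.4%, those 0.5 apart in 100% and equal ones in 2.3%. The simulation draws each gene independently, with normal noise and a smoothed SD that depends only on level. Its rates need not hold for members whose own SD departs from that of genes of like level. Second copies were sought among RefSeq transcripts with BLAST 2.17.0 (90% identity, at least 50 bases). Named genes were all members and, of the wider list, the highest and lowest of each role and any listed at 0 in every library, plus IPMDH3 as the near copy of a member. The members, lists and pairs were chosen with earlier results of these data known. Alternatives were a pseudocount of 0.1, no filter, the highest transcript, scaling to nuclear genes, other members and leaving out each library.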

Additional observations from a re-analysis of the deposited data

How the results depend on the processing

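Of the 15 pairs tested, 11 kept their direction and their side of the threshold under all 7 alternatives. The 4 that did not are MYB29, MYB34 and MYB51 against MYB28, and SOT16 against SOT18. With the highest transcript alone, the difference from MYB28 was -0.059 for MYB29 (no longer past the threshold), 0.17 for MYB34 and 0.53 for MYB51, the last 2 with the opposite sign. Counting 1 of the 2 forms of MYB28 lowers this reference by construction. MYB51 against MYB28 lay between -0.16 and -0.045 when 1 library was left out, and passed at -0.16 without replicate 2. SOT16 exceeded SOT18 by 0.082 to 0.13 with 1 library left out, passing only without replicate 2, and by 0.10 with the variances of both genes, where it did not pass. The difference of the branches was 0.35 with the highest transcript, 0.12 with enzymes only, 0.29 over steps with a member in both branches, 0.27 without members below 1 FPKM (an alternative chosen after seeing the data) and -0.087 with the median over members. It lay between 0.43 and 0.46 with 1 library left out. Beyond the members each alternative drops, the cause was not tested. The counts of members of at least 1 FPKM and of members that varied stayed within 1.5 times under every alternative. No paired analysis was possible because there is 1 group, so no replicate numbers are shared between groups. The tests of gene pairs already take each ratio within a library. Read depth is not stated, so no counting error can be given, and values listed as 0 can be failed estimates.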
